A study of Danio rerio with 4 samples.

Results

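Ablation of ventricular cardiomyocytes was described here in larvae kept in vehicle, as the difference between 1 library of injured DMSO hearts and 1 library of uninjured DMSO hearts. The genes described were those listed in both libraries with a mean level of at least 5 FPKM (fragments per kilobase of transcript, adjusted for library size) over the pair. This rule kept 7311 of the 18231 genes listed in any of the 4 libraries of the series. Of the 13866 genes listed in both libraries, 6555 lay below the mean. The last gene inside was arhgap35b, with a mean of 5.003 FPKM, and the first gene outside was fryb, with 4.999 FPKM. A further 721 genes were listed in the injured DMSO library alone and 2362 in the uninjured DMSO library alone, and these were left out of all folds.

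Both groups were hearts of Tg(vmhc:mCherry-NTR) zebrafish larvae at 5 days post fertilization. In this line the promoter of the ventricular myosin gene vmhc drives a red fluorescent protein fused to nitroreductase, an enzyme that turns metronidazole (MTZ) into a toxin inside the cells that make it, so the injury is limited by design to ventricular cardiomyocytes. Injured DMSO larvae had been given 5 mM MTZ from 72 hours post fertilization, were washed, and were then held in 0.2% DMSO from 76 to 124 hours, which makes them 2 days post treatment. Uninjured DMSO larvae were held in 0.2% DMSO over the same hours, and the sources used here do not say whether they also received MTZ. The series holds a second pair, injured SIS3 and uninjured SIS3, in which 2 µM SIS3, an inhibitor of Smad3 phosphorylation, took the place of DMSO. The number of hearts behind a library is likewise not stated there, and the labels give 2.17 µg of total RNA for the injured hearts. Each group had 1 library, so the differences are described without any test and without replicate error.

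The larval heart has a muscular atrium and ventricle lined by endocardium and covered by epicardium. After loss of ventricular muscle, the zebrafish heart is known to recruit phagocytes, to activate the epicardium, to lay down matrix for a time, and to rebuild muscle from remaining cardiomyocytes. Secreted and membrane proteins, matrix included, pass through the endoplasmic reticulum (ER), where they are translocated, glycosylated, folded and inspected before they leave in coated vesicles.

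Levels are given as FPKM after scaling of the 4 libraries to each other, and changes as differences of log2(scaled FPKM + 1), injured DMSO over uninjured DMSO. Over the genes described, the median change was 0.02 with scaling and 0.23 with the deposited values, so that without scaling every change lies about 0.21 further to the injured side. The 9 cardiomyocyte markers, of which ttn.2 was listed in neither library and myh6 in injured DMSO alone, summed to 8434 FPKM in injured DMSO against 11029 FPKM in uninjured DMSO. Without nppa, which was higher, the other 8 summed to 4992 FPKM in injured DMSO against 9960 FPKM in uninjured DMSO. Markers of other tissues were present too and were unequal. The 7 neural and retinal markers, of which 5 were listed in the uninjured library, were all unlisted in the injured DMSO library and summed to 147 FPKM in the uninjured DMSO library. Of 5 markers of exocrine pancreas, 3 were listed in each library, with sums of 19.3 FPKM in injured DMSO against 632 FPKM in uninjured DMSO. The 4 skin markers summed to 266 FPKM in injured DMSO against 1036 FPKM in uninjured DMSO, with cyt1 listed in neither, and the 5 skeletal muscle markers to 311 FPKM in injured DMSO against 887 FPKM in uninjured DMSO, with mylpfa and pvalb1 listed in neither. What part this unequal share of other tissue had in the changes below was not tested.

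In all, 497 of the 7311 genes (6.8%) were at least 2-fold higher in the injured DMSO library and 460 (6.29%) were at least 2-fold lower. Higher genes were thus 51.9% of the calls. The 6.8% higher and 6.29% lower of all genes are the shares to set beside the percentages given for lists below. Without scaling the deposited values gave 752 higher and 299 lower genes, with 71.6% of calls on the higher side. Past 4-fold, 110 genes were higher and 100 lower, and past 8-fold 26 were higher and 34 lower. The middle 90% of genes had changes between −1.11 and 1.17. Abundant genes stood apart from the rest: the 534 genes that averaged 100 FPKM or more had a median change of −0.39, with 36 higher and 71 lower (13.3%), whereas the 2709 genes between 5 and 10 FPKM had a median of 0.01, with 165 higher and 161 lower (5.94%). The genes described summed to 397362 FPKM in injured DMSO against 506284 FPKM in uninjured DMSO. Of 439 higher genes with first exons and last exons both listed, 397 were at least 2-fold higher by both sums. Of 400 such lower genes, 350 were at least 2-fold lower by both. The 2 sums agreed within 0.1% for 65.8% of genes in injured DMSO and 65.5% in uninjured DMSO, so these counts are no independent support.

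**Figure D1:**
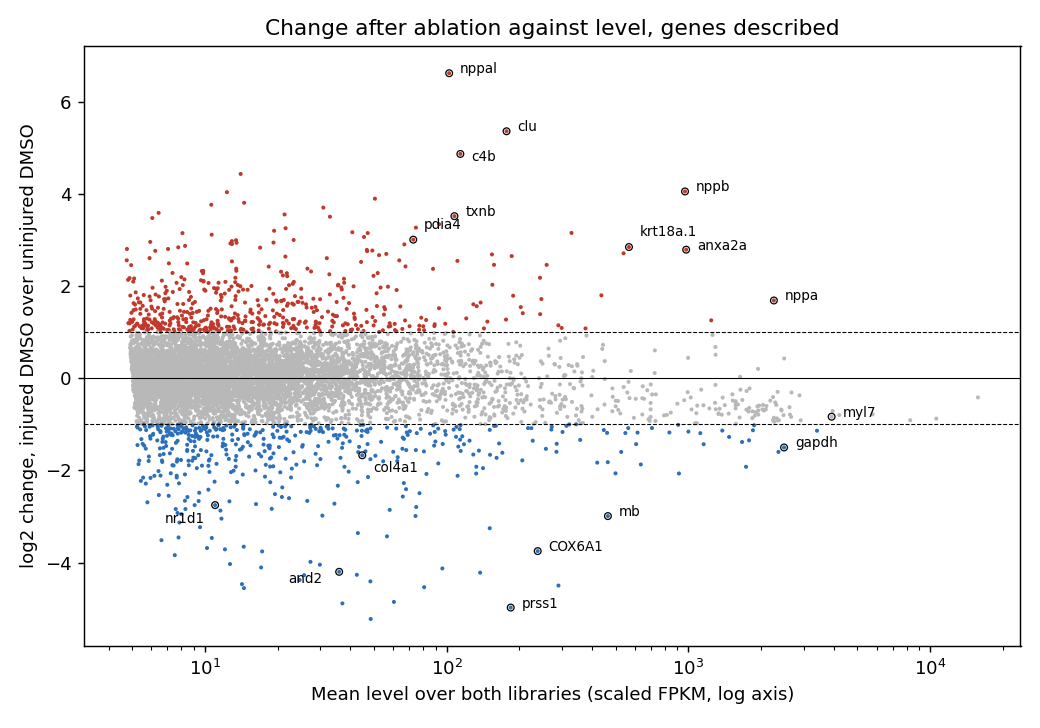
Change of each of the 7311 genes described (vertical axis, log2 of injured DMSO over uninjured DMSO) against its mean scaled FPKM over both libraries (horizontal log axis). Red and blue points are higher and lower past 2-fold, which the dashed lines mark; the natriuretic genes nppal (6.61) and nppb (4.05) lie at the top, and the genes at the abundant end lie mostly below 0 (median −0.39 above 100 FPKM).

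Several cardiomyocyte genes were lower, while the natriuretic peptide genes nppal and nppb had 2 of the 5 highest changes with a symbol. The entry that holds vmhc, listed under the name MYH7 and covering 2 first exons in the stretch where the gene order places vmhc and myh7l, was at 184 FPKM in injured DMSO against 656 FPKM in uninjured DMSO (−1.83). The first of these exons, at chromosome 2, 24614237 to 24614260 (GRCz10, minus strand), had 79.4 FPKM in injured DMSO against 182 FPKM in uninjured DMSO (−1.19), and the other, at 24633949 to 24633992, had 104 FPKM in injured DMSO against 474 FPKM in uninjured DMSO (−2.18). In bulk hearts, fewer cells of a type and less RNA per cell cannot be told apart, and this holds for every cell type below. Of 22 genes of chamber identity, 4 were higher and 4 lower (18.2% each way), with a median of −0.29. The essential light chain gene cmlc1 was at 7.71 FPKM in injured DMSO against 37.7 FPKM in uninjured DMSO (−2.15). Its uninjured level was uneven between the pairs, with 11.2 FPKM in uninjured SIS3, and it was unlisted in injured SIS3. Nkx2.5, the homeobox gene that specifies heart muscle, had 28.5 FPKM in injured DMSO against 64.3 FPKM in uninjured DMSO (−1.14). HEY2, a transcription factor gene of the same list, was lower too, at 5.95 FPKM in injured DMSO against 29.5 FPKM in uninjured DMSO (−2.14). Among other cardiac transcription factor genes, gata5 was closer to even at 169 FPKM in injured DMSO against 135 FPKM in uninjured DMSO (0.33). So was tbx20, at 41.7 FPKM in injured DMSO against 50.1 FPKM in uninjured DMSO (−0.26). The highest change of any gene described was that of nppal, a natriuretic peptide gene at chromosome 8, 48614629 to 48615582, which had 204 FPKM in injured DMSO against 1.09 FPKM in uninjured DMSO (6.61). Its neighbour nppb was at 1826 FPKM in injured DMSO against 109 FPKM in uninjured DMSO (4.05). The most abundant of the 3 natriuretic genes, nppa, had a smaller change, at 3442 FPKM in injured DMSO against 1069 FPKM in uninjured DMSO (1.69). The remaining higher gene of this group was the smoothelin-like gene smtnl1, at 57.5 FPKM in injured DMSO against 13.5 FPKM in uninjured DMSO (2.01).

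The machinery that builds and anchors sarcomeres was lower more often than higher, with 9 of 35 genes at least 2-fold lower (25.7%), 3 higher (8.6%) and a median of −0.65. Over all genes 6.29% were lower and 6.8% higher. Lower members included the Z-disc LIM proteins ldb3b (39.7 FPKM in injured DMSO, 121 FPKM in uninjured DMSO, −1.59) and pdlim5b (37.3 FPKM in injured DMSO, 112 FPKM in uninjured DMSO, −1.56). The muscle methyltransferase smyd1b, needed to fold myosin, was at 9.27 FPKM in injured DMSO against 27.3 FPKM in uninjured DMSO (−1.46). Cardiac myosin-binding protein C, mybpc3, had 105 FPKM in injured DMSO against 215 FPKM in uninjured DMSO (−1.03). The 3 higher members were fhl3a, pdlim3b and the myosin chaperone hsp90aa1.1. The LIM-domain gene fhl3a had 35 FPKM in injured DMSO against 8.4 FPKM in uninjured DMSO (1.94), while its relative fhl2b had 13.4 FPKM in injured DMSO against 44 FPKM in uninjured DMSO (−1.64), so LIM proteins of one family lay on both sides. Desmin (desma), the intermediate filament of muscle, did not pass 2-fold, at 277 FPKM in injured DMSO against 214 FPKM in uninjured DMSO (0.37).

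Of 101 channel, pump and calcium-handling genes listed in any library, 37 were listed in uninjured DMSO alone and 2 in injured DMSO alone, against 2362 and 721 over all genes. Of the 27 described, 5 were lower (18.5%, against 6.29% of all genes, or 3 genes without scaling). None was higher and the median was −0.51. The lowest was atp1a1b, for an α subunit of the sodium pump, at 1.06 FPKM in injured DMSO against 14.9 FPKM in uninjured DMSO (−2.95). Phospholamban, pln1, which restrains the calcium pump of the sarcoplasmic reticulum, was at 18.3 FPKM in injured DMSO against 113 FPKM in uninjured DMSO (−2.57). The pump itself, atp2a2a, had 171 FPKM in injured DMSO against 371 FPKM in uninjured DMSO (−1.11), and its duplicate atp2a2b had 23 FPKM in injured DMSO against 14.1 FPKM in uninjured DMSO (0.67). For atp2a2a the second pair was nearly level, at 147 FPKM in injured SIS3 against 164 FPKM in uninjured SIS3 (−0.15). The T-type calcium channel gene cacna1g was lower as well (3.64 FPKM in injured DMSO, 9.46 FPKM in uninjured DMSO, −1.17). The remaining lower gene was atp2a1 (3.28 FPKM in injured DMSO, 11.4 FPKM in uninjured DMSO, −1.53). Genes of the intercalated disc, which joins cardiomyocytes end to end, were mostly within 2-fold. Of 13, 1 was higher and none lower, and that one was the connexin gene gjc4b, at 35.2 FPKM in injured DMSO against 10.8 FPKM in uninjured DMSO (1.62).

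Matrix genes divided by the kind of collagen they encode. Of 18 collagen genes, 11 were higher (61.1%) and 5 lower (27.8%), with a median of 1.34. The 11 higher genes encode chains of the fibril-forming types I, V and XI, of type VI, and of types XII and XVI. Col1a2, for a chain of the main fibril collagen, was at 194 FPKM in injured DMSO against 63.4 FPKM in uninjured DMSO (1.6), and col5a2a, whose product helps to start fibrils, was at 138 FPKM in injured DMSO against 47.6 FPKM in uninjured DMSO (1.52). The fibril-associated col12a1a had 148 FPKM in injured DMSO against 27.8 FPKM in uninjured DMSO (2.37). All 5 lower genes encode collagens of basement membranes, the sheets on which endothelium and muscle rest. Their main chains were alike, with col4a1 at 20.9 FPKM in injured DMSO against 68.7 FPKM in uninjured DMSO (−1.67), and col4a2 at 23.6 FPKM in injured DMSO against 77.9 FPKM in uninjured DMSO (−1.68). Col4a5, col18a1a and col18a1b were the other 3, with changes of −1.35, −1.15 and −1.21. The 16 basement membrane genes, which share those 5 collagens, had a median of −0.47, with 5 lower (31.2%, or 3 genes without scaling) and 1 higher (6.2%). Without the collagens, none of the rest was lower past 2-fold: the laminin genes lama5 (22.4 FPKM in injured DMSO, 41.7 FPKM in uninjured DMSO, −0.87) and lamc1 (52.8 FPKM in injured DMSO, 60.5 FPKM in uninjured DMSO, −0.19) were below 0, and pxdn, the peroxidase that crosslinks collagen IV, was the higher one (21.8 FPKM in injured DMSO, 9.80 FPKM in uninjured DMSO, 1.08).

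Enzymes that modify and trim collagen were mostly on the higher side. Of 19, 10 were higher (52.6%) and 1 lower (5.3%), with a median of 1.19. Pcolcea, an enhancer of the protease that trims procollagen, was at 293 FPKM in injured DMSO against 84 FPKM in uninjured DMSO (1.79). The protease bmp1a had 31.1 FPKM in injured DMSO against 12.5 FPKM in uninjured DMSO (1.25). Both copies of the collagen chaperone Hsp47 were higher, serpinh1b (38.9 FPKM in injured DMSO, 11.8 FPKM in uninjured DMSO, 1.64) and serpinh1a (31.3 FPKM in injured DMSO, 13.2 FPKM in uninjured DMSO, 1.19). Prolyl 3-hydroxylases p3h2 and p3h1 were higher (1.77 and 1.44), but the α subunits of prolyl 4-hydroxylase were not, with p4ha1a, p4ha2 and p4ha1b at 0.57, −0.03 and −0.50. The 1 lower gene was the lysyl oxidase loxa (5.80 FPKM in injured DMSO, 31.5 FPKM in uninjured DMSO, −2.26), while its relatives loxl2a and loxl2b were higher (1.68 and 1.33).

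Genes that remodel matrix included 11 higher (44.0%) and no lower members among 25 proteases and inhibitors (median 0.9). Genes of these matrix lists that had a level in a single library were more often those of uninjured DMSO, with 2 listed in injured DMSO alone and 10 in uninjured DMSO alone for the proteases and inhibitors, 0 and 8 for the collagens, and 3 and 13 for the proteoglycan and matricellular list. The same held over all genes, with 721 listed in injured DMSO alone and 2362 in uninjured DMSO alone, so these counts are not particular to matrix genes. Plat, the tissue plasminogen activator, was at 23.6 FPKM in injured DMSO against 2.28 FPKM in uninjured DMSO (2.91). The gelatinase mmp2 (71 FPKM in injured DMSO, 27.7 FPKM in uninjured DMSO, 1.33), its membrane-bound activator mmp14a (25.9 FPKM in injured DMSO, 10.9 FPKM in uninjured DMSO, 1.17) and the inhibitors timp2a and timp2b (1.03 and 3.0) were higher together. Among the 33 proteoglycan, hyaluronan and matricellular genes the calls were even, with 4 higher and 4 lower (median 0.21). Tenascin C, tncb, was at 23.3 FPKM in injured DMSO against 2.2 FPKM in uninjured DMSO (2.92). The microfibril gene MFAP4 was at 136 FPKM in injured DMSO against 13.2 FPKM in uninjured DMSO (3.27), and elastin b, elnb, at 23.8 FPKM in injured DMSO against 85.5 FPKM in uninjured DMSO (−1.8). The most abundant member, sparc, did not pass 2-fold, with 359 FPKM in injured DMSO against 300.1 FPKM in uninjured DMSO (0.26).

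Within the secretory pathway, genes of ER folding stood well above the share of genes called over all. Of 26 ER folding enzymes and calcium-binding chaperones, 18 were higher (69.2%, against the 6.8% of all genes) and none lower, with a median of 1.14 and 23 above 0. Pdia4, a protein disulfide isomerase, was at 130 FPKM in injured DMSO against 15.3 FPKM in uninjured DMSO (3.0), the largest change of the group. All 3 calreticulin genes listed were higher, calr3b at 115 FPKM in injured DMSO against 20.5 FPKM in uninjured DMSO (2.42), calr3a at 210 FPKM in injured DMSO against 66.6 FPKM in uninjured DMSO (1.64), and calr at 32.3 FPKM in injured DMSO against 14.2 FPKM in uninjured DMSO (1.14). The co-chaperone hyou1 (37.8 FPKM in injured DMSO, 8.39 FPKM in uninjured DMSO, 2.05) and the secreted ER stress proteins manf (40.3 FPKM in injured DMSO, 9.77 FPKM in uninjured DMSO, 1.94) and creld2 (16.3 FPKM in injured DMSO, 3.57 FPKM in uninjured DMSO, 1.92) followed. Ppib, a proline isomerase and the most abundant member, was short of 2-fold at 496 FPKM in injured DMSO against 261 FPKM in uninjured DMSO (0.93).

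At the steps around folding the medians lay above 0, but few genes passed 2-fold. Among 22 genes of translocation and signal peptide cleavage, 20 were above 0 and 2 at least 2-fold higher (9.1%, or 5 genes without scaling), and the median was 0.59. Among 21 genes of N-glycosylation, 20 were above 0 and 5 at least 2-fold higher (23.8%, or 8 genes without scaling, median 0.75), including the oligosaccharyltransferase subunits ddost (85 FPKM in injured DMSO, 37 FPKM in uninjured DMSO, 1.18) and rpn2 (123 FPKM in injured DMSO, 55.4 FPKM in uninjured DMSO, 1.13). The 35 genes of COPII and COPI coats and cargo receptors had a median of 0.58, with 4 higher (11.4%, or 7 genes without scaling), among them the cargo receptor lman1 (14.4 FPKM in injured DMSO, 4.58 FPKM in uninjured DMSO, 1.46). ER-associated degradation, which removes misfolded proteins, had a median of 0.43 over 19 genes with none past 2-fold, or 5 higher without scaling. Edem2, edem1 and os9, which pick out misfolded glycoproteins, came nearest, at 0.91, 0.89 and 0.86. No gene in any of these 4 groups was at least 2-fold lower.

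**Figure D2:**
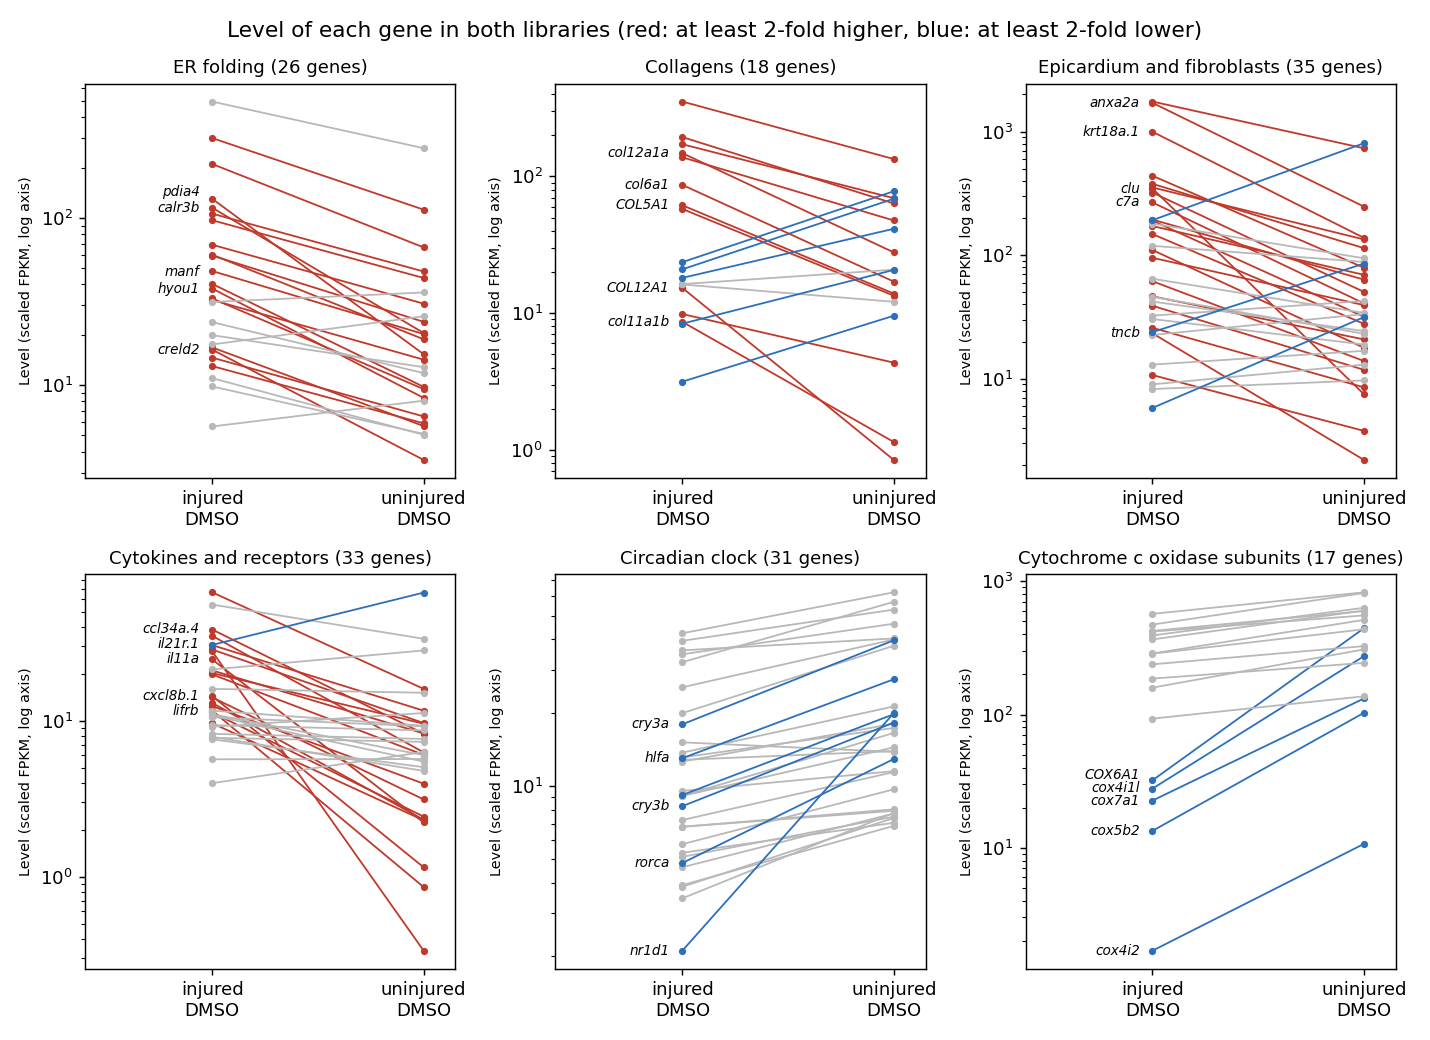
Scaled FPKM (log axis) of every described gene of 6 groups, injured DMSO on the left and uninjured DMSO on the right of each panel, with a line per gene. Red and blue lines are higher and lower past 2-fold in injured DMSO, and the 5 genes with the largest change are named; ER folding genes run together, collagens part into red and blue, and the 17 cytochrome c oxidase genes all lie lower in injured DMSO.

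Epicardial and fibroblast genes were mostly on the higher side. Of 35, several of them also collagens and keratins, 21 were higher (60.0%) and 3 lower (8.6%), with a median of 1.29. The list holds the complement genes c7a, at 267 FPKM in injured DMSO against 40.7 FPKM in uninjured DMSO (2.68), and c6.2, at 321 FPKM in injured DMSO against 50.4 FPKM in uninjured DMSO (2.65). Both fibronectin genes were higher, and the more abundant was fn1b, at 439 FPKM in injured DMSO against 79.1 FPKM in uninjured DMSO (2.46). The epicardial transcription factor gene wt1b was at 25.8 FPKM in injured DMSO against 8.51 FPKM in uninjured DMSO (1.5), whereas tbx18, another epicardial factor, was at 42.1 FPKM in injured DMSO against 24.3 FPKM in uninjured DMSO (0.77). Pdgfra, a growth factor receptor of fibroblasts, was near even at 8.25 FPKM in injured DMSO against 9.68 FPKM in uninjured DMSO (−0.21), and tcf21 was listed in neither library. The proteoglycan genes dcn and lum, also expressed by fibroblasts, were below 0 (−0.34 and −0.49).

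Some metabolic genes of retinoic acid were higher, and its receptors were near 0. Of 14 genes, 4 were higher (28.6%) and 1 (7.1%), the binding protein gene crabp1a, was lower (−1.86), and the 4 act in making or clearing retinoic acid. Aldh1a2, the synthesizing enzyme, was at 190 FPKM in injured DMSO against 31.7 FPKM in uninjured DMSO (2.54). Rdh10b, which supplies its substrate, was at 36.7 FPKM in injured DMSO against 7.13 FPKM in uninjured DMSO (2.21). Dhrs3a, which runs the reverse step, was at 16.3 FPKM in injured DMSO against 2.97 FPKM in uninjured DMSO (2.12), and the degrading enzyme cyp26b1 at 33.2 FPKM in injured DMSO against 10.5 FPKM in uninjured DMSO (1.57). The paralogs of these genes were not higher, with rdh10a at −0.06 and dhrs3b at −0.27, and the plasma carrier rbp4 was at −0.84. The receptors rarab, rarga, rxrba and rxrbb lay between −0.38 and −0.05.

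Keratins and annexins also parted. The simple-epithelial keratins were higher, with krt18a.1 at 997 FPKM in injured DMSO against 138 FPKM in uninjured DMSO (2.85) and krt8 at 1751 FPKM in injured DMSO against 733 FPKM in uninjured DMSO (1.26). The skin keratins krt4 (192 FPKM in injured DMSO, 806 FPKM in uninjured DMSO, −2.06) and krt91 (352 FPKM in injured DMSO, 1475 FPKM in uninjured DMSO, −2.07) were lower. Not every keratin of the skin list was lower, since krt94 was at 1148 FPKM in injured DMSO against 845 FPKM in uninjured DMSO (0.44). Krt4 is itself among the skin markers given above and makes up most of their sum, so that sum is no separate reading. In all, 3 of 11 keratin genes were higher (27.3%) and 5 lower (45.5%). Anxa2a, a calcium-dependent membrane-binding protein, was at 1710 FPKM in injured DMSO against 247 FPKM in uninjured DMSO (2.79), and its binding partner s100a10b at 510 FPKM in injured DMSO against 241 FPKM in uninjured DMSO (1.08). Over all 18 annexin and S100 genes the median was 0.05, or −0.35 when genes down to a mean of 1 FPKM were let in.

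Few endothelial genes passed 2-fold. None of 31 was higher, 2 were lower (6.5%, against 6.29% of all genes) and the median was −0.19, or 0.03 without scaling. Cdh5, the endothelial cadherin, was at 44.2 FPKM in injured DMSO against 34.9 FPKM in uninjured DMSO (0.33), and the Vegf receptor kdrl at 22.6 FPKM in injured DMSO against 22.2 FPKM in uninjured DMSO (0.02). The 2 lower genes were the receptors notch1b (12 FPKM in injured DMSO, 32.6 FPKM in uninjured DMSO, −1.36) and tek (7.42 FPKM in injured DMSO, 20 FPKM in uninjured DMSO, −1.32; 0.4 by first exons alone). Smooth muscle and pericyte genes were lower in 4 of 11 cases (36.4%) and higher in 1 (9.1%, median −0.21, or 0.00 without scaling), with acta2 at 59 FPKM in injured DMSO against 139 FPKM in uninjured DMSO (−1.23). Vim, the intermediate filament gene of mesenchyme and glia, was the lowest of them, at 5.27 FPKM in injured DMSO against 36.4 FPKM in uninjured DMSO (−2.58).

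Among secreted signals, the differences lay in single members. Midkine a, mdka, a heparin-binding growth factor, was at 591 FPKM in injured DMSO against 65.6 FPKM in uninjured DMSO (3.15). Of 12 Wnt genes, 3 were higher and none lower, although the median was −0.52. The 3 encode secreted modulators, dkk3b (82.7 FPKM in injured DMSO, 17 FPKM in uninjured DMSO, 2.22), the Wnt antagonist dkk1b (30 FPKM in injured DMSO, 7.04 FPKM in uninjured DMSO, 1.94) and the R-spondin rspo3, which strengthens Wnt signalling (57.6 FPKM in injured DMSO, 19.7 FPKM in uninjured DMSO, 1.5). The ligand genes wnt11 and wnt5b and the target axin2 were below 0 without passing 2-fold (−0.87, −0.84 and −0.5). In the insulin-like growth factor axis, the ligand igf2b was at 39.6 FPKM in injured DMSO against 13 FPKM in uninjured DMSO (1.53), and the insulin receptor insra at 9.08 FPKM in injured DMSO against 27.9 FPKM in uninjured DMSO (−1.52). The type II receptor of TGF-β, tgfbr2a, at chromosome 19, 1278002 to 1297680, had 39.9 FPKM in injured DMSO against 3.29 FPKM in uninjured DMSO (3.25). Of 60 listed genes for Fgf, Vegf, Pdgf, Nrg and Egf ligands and receptors, only 13 were described. The rest lay below the mean or were not listed in both libraries, with 11 in uninjured DMSO alone and 1 in injured DMSO alone. Over all genes 2362 and 721 were listed so. Of the 13, fgf13a was higher (1.4) and fgf3 lower (3.29 FPKM in injured DMSO, 13.8 FPKM in uninjured DMSO, −1.79), 7.7% each way.

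**Figure D3:**
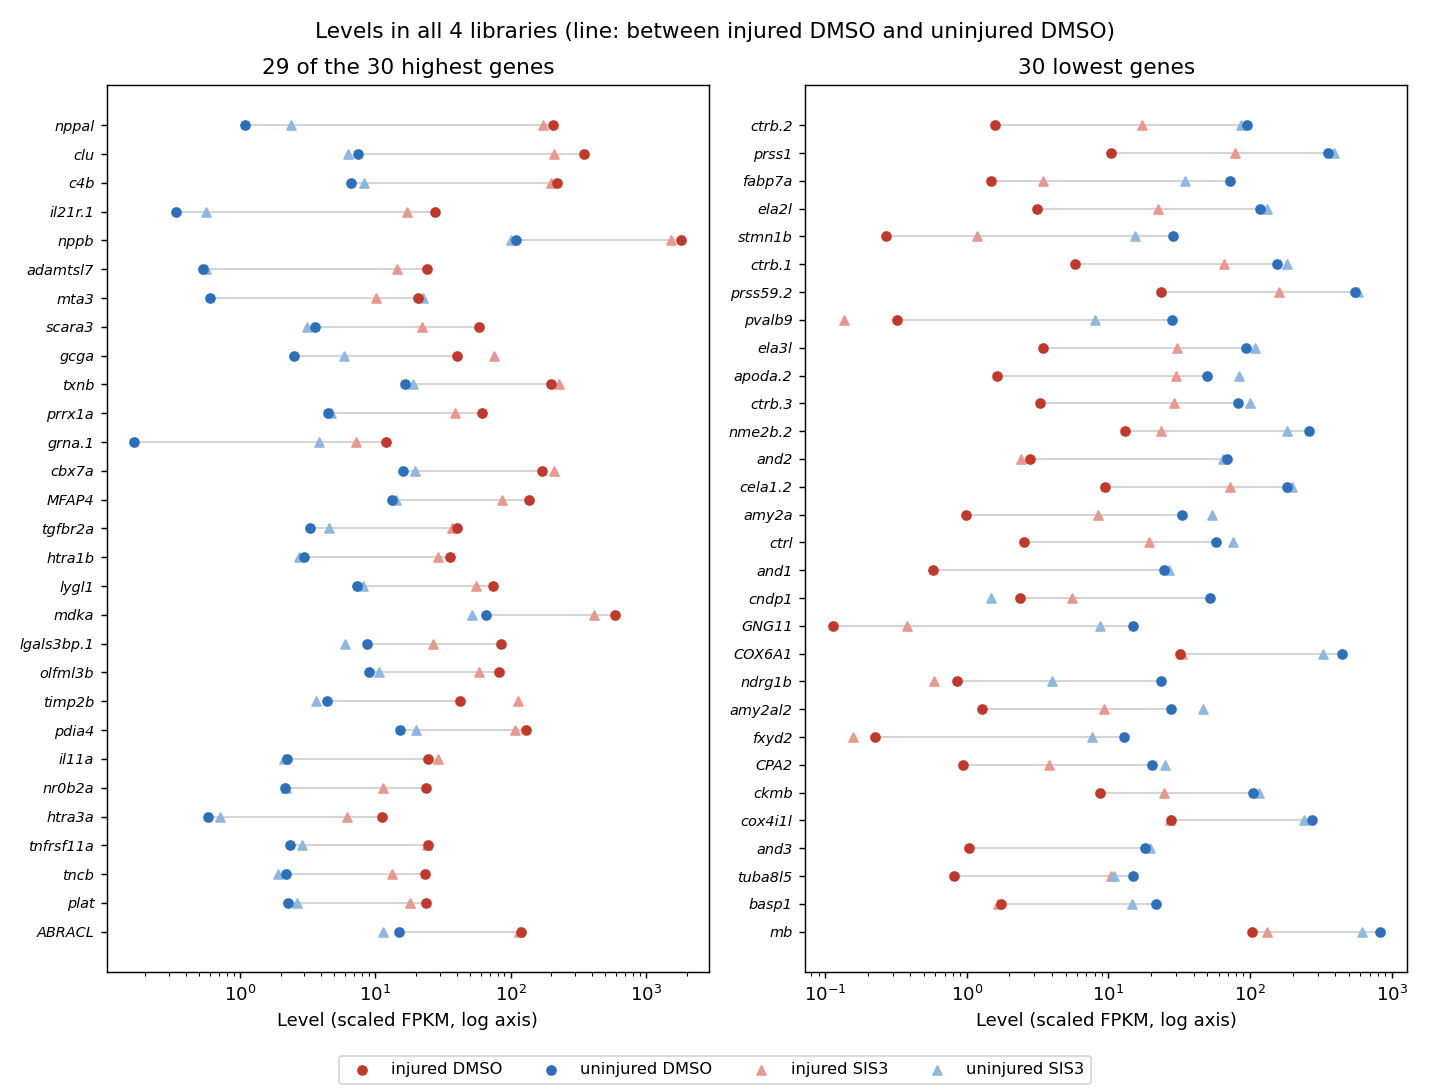
Scaled FPKM (log axis) in all 4 libraries of 29 of the 30 genes with a symbol that had the highest change (left panel) and of the 30 with the lowest (right panel), in order of change. Red marks the injured and blue the uninjured libraries, circles DMSO and triangles SIS3; for mta3 and cndp1 the 2 uninjured libraries lie far apart (0.597 and 22.4 FPKM, and 52.3 and 1.49 FPKM, uninjured DMSO before uninjured SIS3).

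Phagocyte genes had the highest list median, 1.57 over 29 genes, with 16 higher (55.2%) and 2 lower (6.9%). The receptor of colony-stimulating factor 1, on which macrophages depend, was higher in both copies, csf1ra at 16.9 FPKM in injured DMSO against 2.57 FPKM in uninjured DMSO (2.32) and csf1rb at 39.2 FPKM in injured DMSO against 11 FPKM in uninjured DMSO (1.75). A ligand of that receptor, il34, was at 14.1 FPKM in injured DMSO against 3.13 FPKM in uninjured DMSO (1.87). Genes for uptake of debris were higher, such as the scavenger receptor marco (22.5 FPKM in injured DMSO, 4.20 FPKM in uninjured DMSO, 2.18) and the mannose receptor mrc1b (13.1 FPKM in injured DMSO, 1.02 FPKM in uninjured DMSO, 2.8). Mpeg1.2 and cd68 did not pass 2-fold (0.85 and 0.61). Lysosomal enzymes went the same way, with 11 of 33 higher (33.3%), none lower and a median of 0.76. Ctsla, a cathepsin L gene and the most abundant of them, was at 407 FPKM in injured DMSO against 191 FPKM in uninjured DMSO (1.09). The proton pump that acidifies lysosomes had none of its 18 subunit genes at least 2-fold higher (2 without scaling) and 1 lower (5.6%). Still, 16 of the 18 were above 0 (median 0.36). Neutrophil genes numbered 4, of which npsn (21.2 FPKM in injured DMSO, 4.59 FPKM in uninjured DMSO, 1.99) and lyz (91.9 FPKM in injured DMSO, 22.5 FPKM in uninjured DMSO, 1.98) were higher.

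Cytokine and chemokine genes included 17 higher (51.5%) and 1 lower (3.0%) of 33 (median 1.00), and receptors were among the largest. Il21r.1, a receptor gene of the interleukin 21 family at chromosome 3, 47390011 to 47409239, was at 27.8 FPKM in injured DMSO against 0.336 FPKM in uninjured DMSO (4.43). Several members share the receptor chain gp130, encoded by il6st, which was at 21 FPKM in injured DMSO against 8.29 FPKM in uninjured DMSO (1.24). The ligand il11a was at 24.7 FPKM in injured DMSO against 2.23 FPKM in uninjured DMSO (2.99), the partner receptor lifrb at 11.6 FPKM in injured DMSO against 0.859 FPKM in uninjured DMSO (2.76), and the feedback inhibitor socs3b at 66.5 FPKM in injured DMSO against 16 FPKM in uninjured DMSO (1.99). The receptor of il11a, il11ra, was nearly level at 9.37 FPKM in injured DMSO against 8.67 FPKM in uninjured DMSO (0.1). Of the NF-κB genes, nfkb1 and nfkbiaa lay at 0.00 and 0.08, and the inhibitor nfkbiab was the 1 lower gene (30.6 FPKM in injured DMSO, 66.2 FPKM in uninjured DMSO, −1.09). A further 15 genes of this list were listed in the injured DMSO library alone and 6 in the uninjured DMSO library alone, against 721 and 2362 over all genes.

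A set of prostaglandin and leukotriene genes was assembled after its values were seen and is given as values only. Ptgs2a, the inducible cyclooxygenase, was at 11.4 FPKM in injured DMSO against 2.73 FPKM in uninjured DMSO (1.73). Ptges, the prostaglandin E synthase, was at 43.7 FPKM in injured DMSO against 12.5 FPKM in uninjured DMSO (1.72), and lta4h, which makes leukotriene B, at 17 FPKM in injured DMSO against 5.55 FPKM in uninjured DMSO (1.46). The constitutive cyclooxygenase ptgs1 went the other way, with 6.10 FPKM in injured DMSO against 14 FPKM in uninjured DMSO (−1.08). So did ptgdsb.1 of the same set, with 27.5 FPKM in injured DMSO against 61.8 FPKM in uninjured DMSO (−1.14). Of 8 thrombocyte and coagulation genes, 2 were higher and none lower, and 5 were below 0 (median −0.4). The higher ones were the integrin gene itgb3b (1.08) and f13a1b, for the factor that crosslinks fibrin, at 37.8 FPKM in injured DMSO against 5.24 FPKM in uninjured DMSO (2.64). The complement gene c4b had the next highest change of all genes after nppal and clu, at 221 FPKM in injured DMSO against 6.63 FPKM in uninjured DMSO (4.86).

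Energy metabolism was lower across several lists. Of 28 genes of pyruvate entry and the TCA cycle, 26 were below 0, 5 were at least 2-fold lower (17.9%, or 2 genes without scaling) and none higher (median −0.55). Idh2, the mitochondrial NADP isocitrate dehydrogenase and the most abundant, was at 511 FPKM in injured DMSO against 1157 FPKM in uninjured DMSO (−1.18). The pyruvate carrier mpc1 was at 25 FPKM in injured DMSO against 69.1 FPKM in uninjured DMSO (−1.43). Creatine kinases, which buffer ATP in muscle, were lower in the cytosolic form ckmb (8.79 FPKM in injured DMSO, 105 FPKM in uninjured DMSO, −3.43) and in the mitochondrial form ckmt2b (15.9 FPKM in injured DMSO, 133 FPKM in uninjured DMSO, −2.99), and 8 of 32 genes of the phosphagen and carrier list were lower with none higher. Myoglobin, mb, the oxygen store of muscle, was at 103 FPKM in injured DMSO against 826 FPKM in uninjured DMSO (−2.99). Skeletal muscle shares ckmb. Its marker sum given above consists mostly of ckma, another creatine kinase (261 FPKM in injured DMSO, 793 FPKM in uninjured DMSO), so it is no separate reading. What part skeletal muscle had in these values was not tested.

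Cytochrome c oxidase, the last complex of the respiratory chain, was split by paralog for some subunits and not for others. This set and the next were put together after their values were seen. All 17 described nuclear genes for its subunits were below 0 (median −0.72) and 5 were at least 2-fold lower. Most of the 17 are abundant, and all genes that averaged 100 FPKM or more had a median of −0.39, with 13.3% lower. What part that shift of abundant genes had here was not tested. The lowest was the entry named COX6A1, at 32.1 FPKM in injured DMSO against 444 FPKM in uninjured DMSO (−3.75), whereas cox6a1, its paralog, was at 473 FPKM in injured DMSO against 816 FPKM in uninjured DMSO (−0.79). For subunit IV, cox4i1l was at 27.8 FPKM in injured DMSO against 274 FPKM in uninjured DMSO (−3.25), and cox4i1 at 366 FPKM in injured DMSO against 602 FPKM in uninjured DMSO (−0.72). For subunit Vb, cox5b2 was at 13.4 FPKM in injured DMSO against 103 FPKM in uninjured DMSO (−2.86), and cox5ba at 419 FPKM in injured DMSO against 554 FPKM in uninjured DMSO (−0.4). The paralog with the lower level in each of these 3 pairs was thus the one with the larger difference, and in mammals the gene of this kind for subunit VIIa, COX7A1, is known as the heart and muscle form. In the zebrafish libraries cox7a1 was at 22.6 FPKM in injured DMSO against 132 FPKM in uninjured DMSO (−2.49), and cox7a2a at 238 FPKM in injured DMSO against 326 FPKM in uninjured DMSO (−0.46). Other paralogs lay close together. For subunit Va, the entries COX5A and cox5aa had changes of −0.95 and −0.84, and for subunit VIb, cox6b2 and cox6b1 had −0.49 and −0.39.

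Breakdown of the branched-chain amino acids leucine, isoleucine and valine was the second set put together after the values were seen. Of 27 genes, 26 were below 0, 8 were at least 2-fold lower and none was higher, with a median of −0.59. Both subunits of the E1 component of the branched-chain keto acid dehydrogenase, the committed step, were lower, bckdha at 26.3 FPKM in injured DMSO against 58.8 FPKM in uninjured DMSO (−1.13) and bckdhb at 51.3 FPKM in injured DMSO against 120 FPKM in uninjured DMSO (−1.2). The phosphatase ppm1ka, which switches that complex on, was at 4.27 FPKM in injured DMSO against 18.1 FPKM in uninjured DMSO (−1.86), and the kinase bckdk, which switches it off, at 30.6 FPKM in injured DMSO against 41.3 FPKM in uninjured DMSO (−0.42). Further down the valine branch, aldh6a1 was at 64.2 FPKM in injured DMSO against 163 FPKM in uninjured DMSO (−1.33).

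Not every mitochondrial list was lower. The 69 mitochondrial ribosomal protein genes had a median of −0.03 (0.19 without scaling) and the 35 genes of mitochondrial protein import a median of 0.2, with none past 2-fold in either. The import chaperone gene grpel1 was at 35.2 FPKM in injured DMSO against 18.9 FPKM in uninjured DMSO (0.86), while grpel2 was at 14.7 FPKM in injured DMSO against 28 FPKM in uninjured DMSO (−0.88).

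Circadian clock genes lay below 0 almost without exception. Of 31, 30 were below 0, 6 were at least 2-fold lower (19.4%) and none was higher, with a median of −0.61. Without scaling 27 were below 0, 2 were at least 2-fold lower, nr1d1 and rorca, and the median was −0.4. Nr1d1, the repressor Rev-erb α, was the lowest, at 2.11 FPKM in injured DMSO against 19.9 FPKM in uninjured DMSO (−2.75). The other lower members were rorca, which competes with it (4.83 FPKM in injured DMSO, 12.9 FPKM in uninjured DMSO, −1.25), the cryptochromes cry3a and cry3b (−1.1 and −1.05), the PAR bZIP factor hlfa (−1.03) and per2 (9.18 FPKM in injured DMSO, 19.7 FPKM in uninjured DMSO, −1.02). Bmal1a and clockb, of the activating arm, were at −0.47 and −0.35.

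Most early response genes were within 2-fold at 2 days after treatment. The median of 30 immediate early and AP-1 genes was −0.29, or −0.07 without scaling. Of these genes, 2 were higher (6.7%, or 4 genes without scaling) and 3 lower (2 without scaling), against 6.8% and 6.29% of all genes. The higher ones were socs3b and fosl2, a Fos-related subunit of AP-1 (17.3 FPKM in injured DMSO, 3.38 FPKM in uninjured DMSO, 2.07), whereas fosab itself was at 66.1 FPKM in injured DMSO against 74.8 FPKM in uninjured DMSO (−0.18). Nr4a1 was lower, at 5 FPKM in injured DMSO against 13.9 FPKM in uninjured DMSO (−1.31). A mixed list held genes of amino acid synthesis and transport and targets of Atf4, the factor of the amino acid response. It gave 4 higher (10.5%, against 6.8% of all genes) and 1 lower (2.6%, against 6.29%) of 38 (median 0.1). The higher members make or import amino acids, a ground on which the list was drawn up. Among them were asns (18 FPKM in injured DMSO, 4.25 FPKM in uninjured DMSO, 1.85), psat1 (1.28) and glulb, a glutamine synthetase (399 FPKM in injured DMSO, 87.4 FPKM in uninjured DMSO, 2.18). Its duplicate glula, which is also a glial gene, was the lower one, at 5.59 FPKM in injured DMSO against 39 FPKM in uninjured DMSO (−2.6). What part other tissue had in that value was not tested. The target genes ddit3 and chac1, which are linked to cell death, were at 0.6 and −0.22.

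Antioxidant genes had a single extreme. Txnb, a thioredoxin gene at chromosome 7, 24086074 to 24093558, was at 199 FPKM in injured DMSO against 16.5 FPKM in uninjured DMSO (3.51). Of the 33 genes of the list, 3 were higher (9.1%) and 5 lower (15.2%, median −0.28), or 6 higher and 2 lower without scaling. Nqo1, a textbook target of Nrf2, was at 3.80 FPKM in injured DMSO against 13.1 FPKM in uninjured DMSO (−1.55), and the mitochondrial dismutase sod2 at 71.5 FPKM in injured DMSO against 155 FPKM in uninjured DMSO (−1.11). Cytosolic heat shock genes gave 2 higher and 2 lower of 27 (7.4% each way), near the 6.8% and 6.29% of all genes. Among the lower ones was the inducible hsp70l, at 3.53 FPKM in injured DMSO against 29 FPKM in uninjured DMSO (−2.73). In the SIS3 pair hsp70l was nearly level too, at 8.42 FPKM in injured SIS3 against 9.76 FPKM in uninjured SIS3 (−0.19). Hypoxia-responsive genes gave 2 higher (7.1%) and 9 lower (32.1%) of 28 (median −0.35). Of the 9 lower ones, 5 encode glycolytic enzymes, such as tpi1b (74.1 FPKM in injured DMSO, 248 FPKM in uninjured DMSO, −1.73) and gapdh (1297 FPKM in injured DMSO, 3673 FPKM in uninjured DMSO, −1.5), while vegfaa and slc2a1b were at 0.99 and 0.17. In iron handling, the hormone gene hamp was at 8.84 FPKM in injured DMSO against 0.671 FPKM in uninjured DMSO (2.56), and the ferritin chain fth1a at 1548 FPKM in injured DMSO against 2982 FPKM in uninjured DMSO (−0.95).

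Proteasome genes differed by small and even amounts. Of 44 proteasome subunit and assembly genes, 42 were above 0 with a median of 0.64, and 2 passed 2-fold (4.5%, or 9 genes without scaling), psmd12 (61.3 FPKM in injured DMSO, 27.4 FPKM in uninjured DMSO, 1.14) and psmd8 (110.0 FPKM in injured DMSO, 49.9 FPKM in uninjured DMSO, 1.13). Cytosolic aminoacyl-tRNA synthetase genes had a median of 0.34 over 21, and ribosome biogenesis genes, of which 2 were higher (3.9%) and 1 lower (2.0%), 0.25 over 51. Npm1a, the nucleolar protein nucleophosmin, was one of the higher ones, at 302 FPKM in injured DMSO against 103 FPKM in uninjured DMSO (1.54), but it was at 78.7 FPKM in injured SIS3 against 114 FPKM in uninjured SIS3 (−0.53). Translation factors were spread on both sides of 0, with 2 of 60 higher (3.3%) and 4 lower (6.7%, median −0.08), or 8 higher and 1 lower without scaling (median 0.13). The most abundant, eef1a1l1, was at 5734 FPKM in injured DMSO against 10789 FPKM in uninjured DMSO (−0.91). DNA replication and mitosis formed the largest list without a call, with 84 genes described, none at least 2-fold higher or lower (1 higher without scaling) and a median of 0.04. Its extremes were ccnb1 at 0.78 and MCM7 at −0.89.

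Actin regulators were higher in 13 of 58 cases (22.4%) and lower in 1 (1.7%, median 0.43). The higher ones included subunits of the Arp2/3 complex, which branches actin filaments, arpc5a (32.2 FPKM in injured DMSO, 9.38 FPKM in uninjured DMSO, 1.68) and arpc1b (77.4 FPKM in injured DMSO, 25.5 FPKM in uninjured DMSO, 1.56). Filamin A, flna, which crosslinks actin, was at 116 FPKM in injured DMSO against 48 FPKM in uninjured DMSO (1.26). Arpc1b and several others of these genes are also abundant in leukocytes, whose markers were higher: the 5 macrophage markers summed to 174 FPKM in injured DMSO against 37.2 FPKM in uninjured DMSO, with mpeg1.1 listed in neither. What part those cells had in the actin list was not tested.

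**Figure D4:**
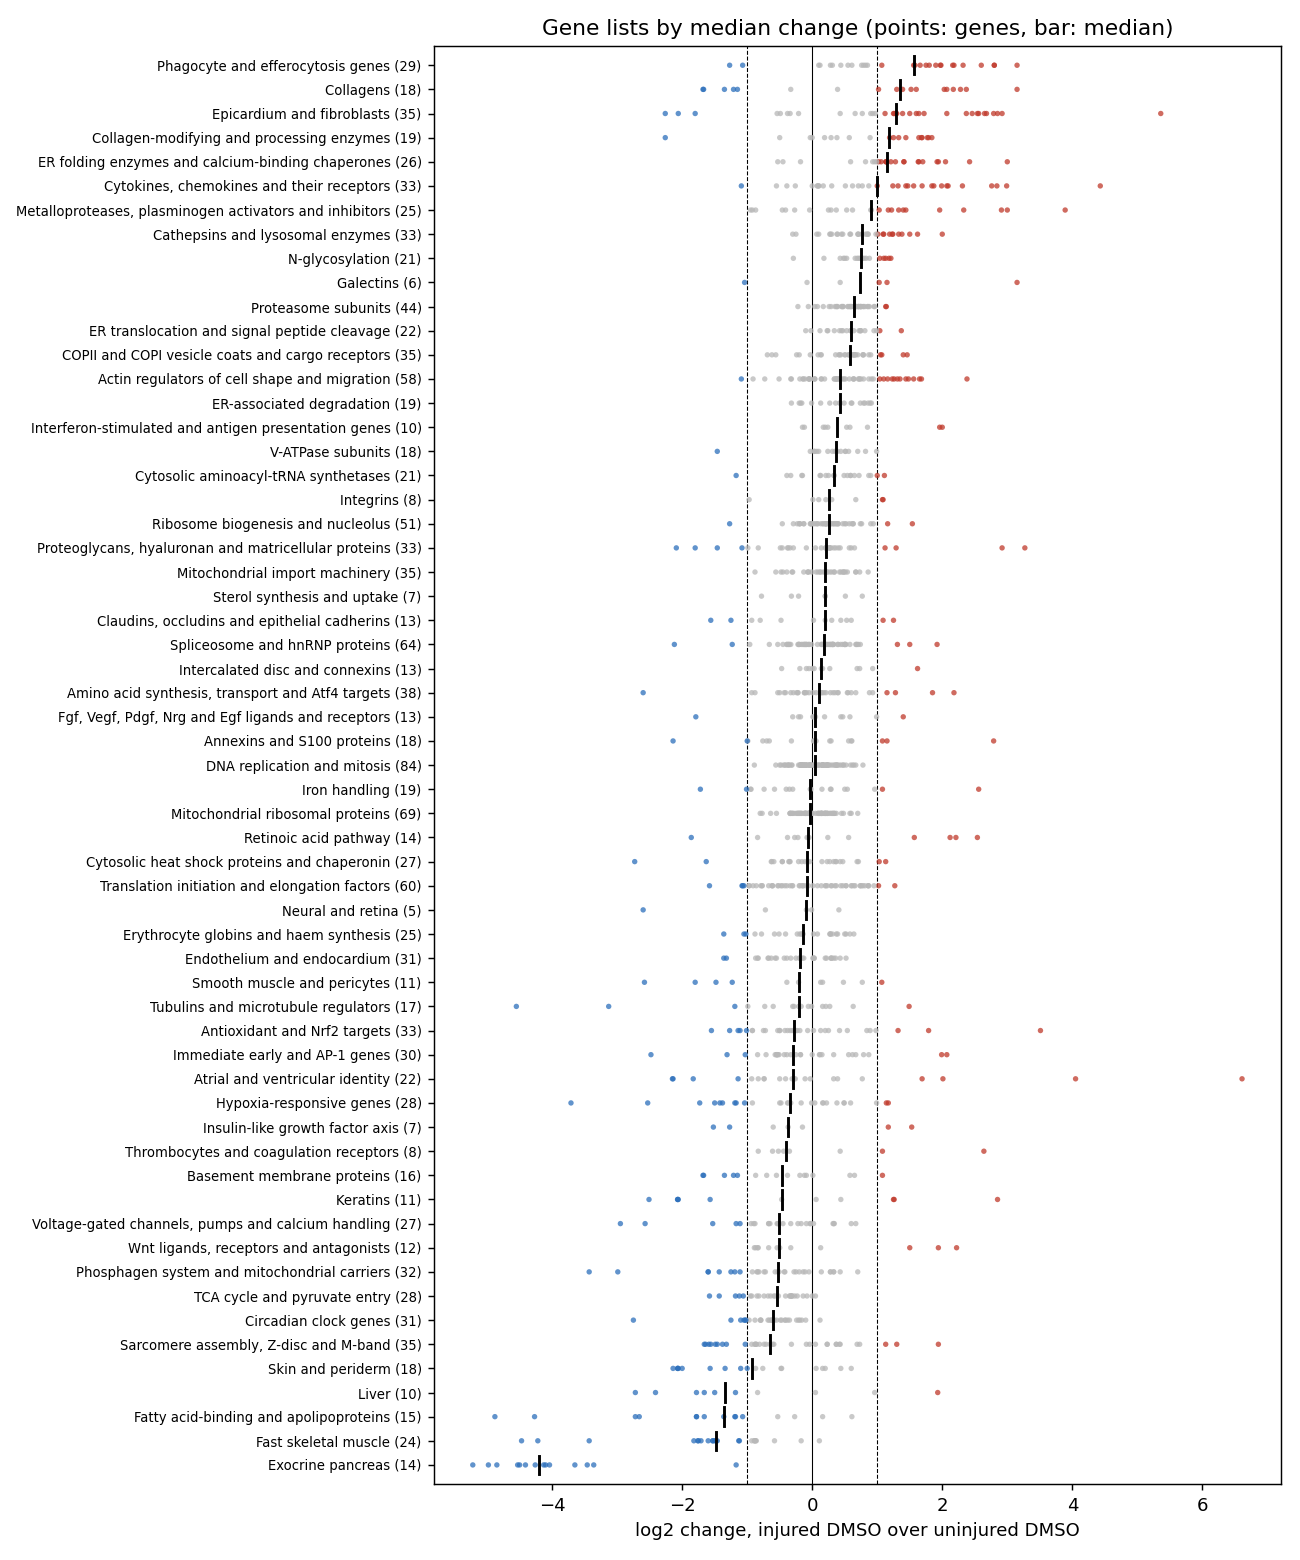
Log2 change (injured DMSO over uninjured DMSO) of every described gene in the lists with at least 5 genes, ordered by list median, with the number of genes in brackets. Each point is a gene, the bar is the list median, dashed lines mark 2-fold, and lists run from phagocyte genes (1.57) at the top to exocrine pancreas (−4.2) at the bottom.

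Genes of exocrine pancreas, fast muscle, liver and skin had some of the lowest list medians, whereas the 4 described genes of cartilage and bone had a median of 0.78, with 2 higher and 1 lower. Of the 23 cartilage and bone genes listed in any library, 12 were listed in uninjured DMSO alone and 0 in injured DMSO alone. Over all genes, 2362 were listed in uninjured DMSO alone and 721 in injured DMSO alone. The 2 higher ones, col11a1b and hapln1a, are also in the collagen and the proteoglycan lists. All 14 described genes of exocrine pancreas were at least 2-fold lower, with a median of −4.2, led by the chymotrypsinogen ctrb.2 (1.58 FPKM in injured DMSO, 95.4 FPKM in uninjured DMSO, −5.22). The elastase-like entry ela2 was the exception in size, at 185 FPKM in injured DMSO against 417 FPKM in uninjured DMSO (−1.17). An endocrine gene of the same organ went the other way: gcga, which encodes glucagon, was at 40.2 FPKM in injured DMSO against 2.52 FPKM in uninjured DMSO (3.55). Fast skeletal muscle genes were lower in 15 of 24 cases (62.5%) with none higher (median −1.47), and the parvalbumin pvalb9 was at 0.320 FPKM in injured DMSO against 28.2 FPKM in uninjured DMSO (−4.47). The actinodins, structural proteins of the larval fin fold, were all among the 30 lowest genes with a symbol. And2 was at 2.81 FPKM in injured DMSO against 69 FPKM in uninjured DMSO (−4.2), and and1 and and3 had changes of −4.03 and −3.23. Of 50 neural and retinal genes listed in any library, 39 were listed in the uninjured DMSO library alone and 1 in the injured DMSO library alone, so 5 were described. Of 33 lens crystallin genes, 25 were listed in uninjured DMSO alone and none was described. Erythrocyte genes were closer to even by calls and median, with 3 of 25 lower (1 without scaling), none higher and a median of −0.14 (0.09 without scaling). Their sum was not even, at 13410 FPKM in injured DMSO against 23030 FPKM in uninjured DMSO. The most abundant members, the globins hbae1.3 and hbae3, were at −0.88 and −0.78. Globin entries named HBE1 are not in this list or its sum. The more abundant of them was at 13492 FPKM in injured DMSO against 17997 FPKM in uninjured DMSO (−0.42). Another was at 2019 FPKM in injured DMSO against 3806 FPKM in uninjured DMSO (−0.91). Rhag, an ammonium transporter of red cells, had the lowest change of the erythrocyte list, at 127 FPKM in injured DMSO against 327 FPKM in uninjured DMSO (−1.36).

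The second pair of libraries, which shares no library with the first, was read for the same genes. In injured SIS3 over uninjured SIS3, 467 of 7301 genes (6.4%) were higher past 2-fold and 295 (4.04%) lower. Of the 496 genes higher in the DMSO pair and listed in this one, 289 (58.3%) were also at least 2-fold higher, and of the 455 lower ones 198 (43.5%) were also at least 2-fold lower. Across the 7301 genes the changes in the 2 pairs had a Pearson correlation of 0.744, a description over genes that share their libraries and are not independent. Both injured libraries lay above both uninjured ones for 475 of 496 higher genes (95.8%), against 36.6% of all genes, and below both for 397 of 455 lower genes (87.3%), against 31.7% of all genes. The order of the 2 DMSO libraries is fixed by the choice of these genes, so these shares are no test.

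Of the 61 lists with a median in both pairs, 51 had the same sign in each and 10 did not. ER folding genes had a median of 1.14 in the DMSO pair and 0.99 in the SIS3 pair, basement membrane genes −0.47 and −0.61, circadian clock genes −0.61 and −0.54, and proteasome genes 0.64 and 0.75. Phagocyte genes had 1.57 in the DMSO pair and 0.96 in the SIS3 pair, where 5 other lists lay above them. Among the lists of opposite sign were the proteoglycan and matricellular genes (0.21 and −0.15), DNA replication and mitosis (0.04 and −0.23) and translation factors (−0.08 and 0.25), DMSO pair before SIS3 pair. Txnb was nearly the same, with 228 FPKM in injured SIS3 against 18.9 FPKM in uninjured SIS3 (3.52). For gcga the second pair read 75.4 FPKM in injured SIS3 against 5.89 FPKM in uninjured SIS3 (3.47). COX6A1 had 33.3 FPKM in injured SIS3 against 330 FPKM in uninjured SIS3 (−3.27).

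Liver genes differed most in sign and size. The 10 liver genes had a median of −1.34 in the DMSO pair and 2.8 in the SIS3 pair, and the 4 liver markers summed to 239 FPKM in injured DMSO, 363 FPKM in uninjured DMSO, 2012 FPKM in injured SIS3 against 199 FPKM in uninjured SIS3. Apoa2, an apolipoprotein of the liver and yolk, was at 61.6 FPKM in injured DMSO against 196 FPKM in uninjured DMSO, but at 952 FPKM in injured SIS3 against 112 FPKM in uninjured SIS3. For these genes the injured SIS3 library stood apart from the other 3. Exocrine pancreas genes were lower in both pairs, by a median of −4.2 in the DMSO pair and −1.88 in the SIS3 pair, and injured SIS3 had more of them than injured DMSO, with prss1 at 77.9 FPKM in injured SIS3 against 10.4 FPKM in injured DMSO. Among the 30 highest genes, mta3, a subunit of the NuRD chromatin complex, reversed: it was at 20.7 FPKM in injured DMSO against 0.597 FPKM in uninjured DMSO (3.76), and at 10.1 FPKM in injured SIS3 against 22.4 FPKM in uninjured SIS3 (−1.08). Its high change in the DMSO pair rests on the single low value in uninjured DMSO.

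**Figure D5:**
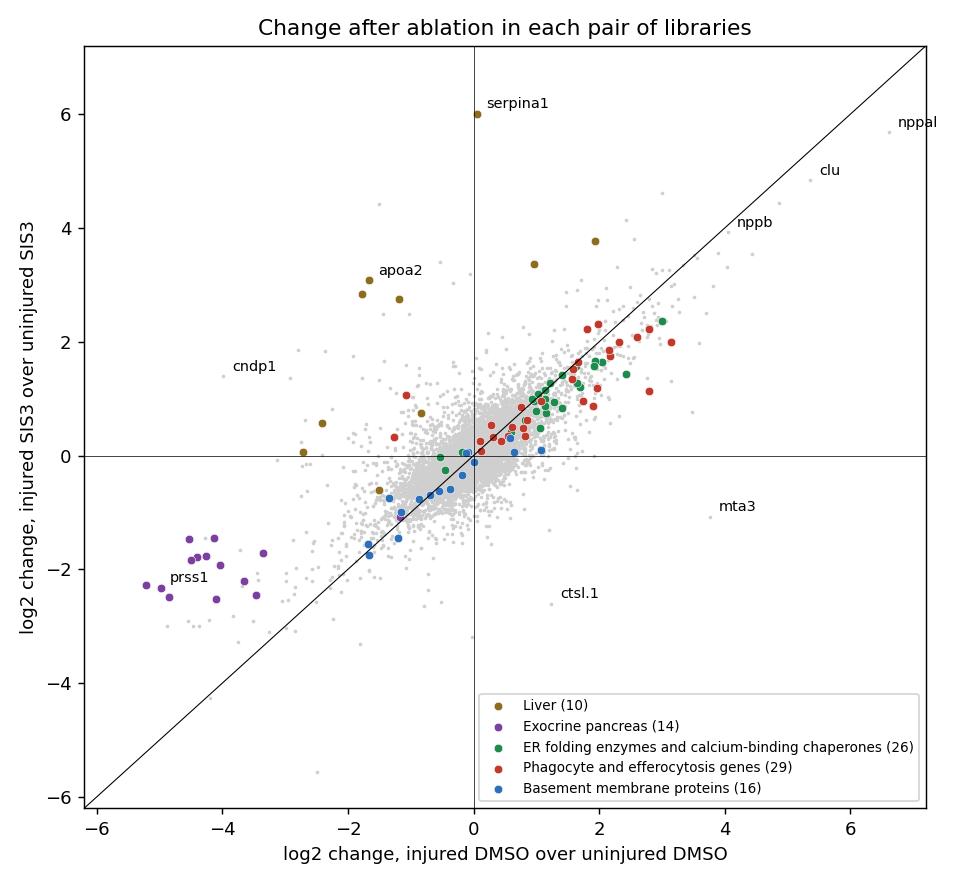
Log2 change of each gene in injured SIS3 over uninjured SIS3 (vertical axis) against its change in injured DMSO over uninjured DMSO (horizontal axis), with the diagonal drawn and 5 lists coloured. ER folding and basement membrane genes lie near the diagonal, phagocyte genes mostly below it (median 0.96 against 1.57), liver genes lie above it (median 2.8 against −1.34), and exocrine pancreas genes mostly lie above it on the lower side of both axes (−1.88 against −4.2).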

How the data were processed

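RNA from larval zebrafish hearts was sequenced in 4 libraries, and the injured DMSO and uninjured DMSO libraries were compared. The deposited values are FPKM per transcript event (alternative first, last and skipped exons, retained introns and exon ends), computed by the authors, per the file headers. Per the submitters' processing notes, CASAVA 1.8, HISAT2 2.0.5, HTSeq 0.6.1 and GRCz10 were used, without the role of each. The tool that wrote these tables was not given in the sources used here. Read depth is unknown, so no counting interval is given.

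Repeated rows were removed (306 of 47926 in injured DMSO, 345 of 53363 in uninjured DMSO). For each gene, first-exon FPKM and last-exon FPKM were each summed, and the larger sum served as its level. The sums agree within 0.1% for 65.8% of the genes described in injured DMSO and 65.5% in uninjured DMSO. A locus merged from neighbouring genes carries 1 gene ID, so a neighbour can go unlisted. Paralogs that share reads may be split by the authors' counting. Scaling used median ratios over genes listed in all 4 (log2 factors 0.11 injured DMSO, −0.12 uninjured DMSO, 0.06 injured SIS3, −0.02 uninjured SIS3). Changes used a pseudocount of 1 FPKM, which understates the change of low genes, and 2-fold was the threshold. No test was made, since each group has 1 library.

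Symbols came from the gene name table for 2647 genes and from neighbour order in RefSeq (GRCz12tu, no coordinates used) for 4369. Another 99 shared a name and 196 had none. Where the name table already gave the copy, neighbour order was right for 1687 of 1687. The members and the 63 gene lists were chosen with earlier results of these data known. Named genes are the 30 highest and 30 lowest with a symbol that is no clone name or gene ID, the 12 most abundant per library, the 8 most changed and 2 most abundant members of a list, every member of a list of at most 15, and other list members where their list is described. Any other gene was chosen after its values were seen. Promoter motifs, part of the design, were not analysed here. The steps were tested on simulated data (Python 3.11.15, pandas 2.3.3, numpy 2.4.6). Alternatives changed the scaling, the pseudocount, the filter and the exon ends used. One gene is not reported here.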

Additional observations from a re-analysis of the deposited data

Results flagged for a closer look

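Injury changes that went opposite ways past 2-fold in the DMSO pair and in the SIS3 pair were found for 21 genes, of which 3 were higher and 18 lower in the DMSO pair. With 1 library per group the difference between the pairs was not tested. Among the 11 of them that the text's rule names, mta3 had a change of 3.76 in the DMSO pair and −1.08 in the SIS3 pair, and ctsl.1, a cathepsin L gene, 1.23 and −2.61 in the same order. The lipid carriers apoeb (−1.07 and 1.06), fabp10a (−1.18 and 2.75), apoa2 (−1.66 and 3.08), apoa1b (−1.78 and 2.84) and apoc2 (−1.78 and 1.36) were lower in the DMSO pair and higher in the SIS3 pair. So were hnrnpk (−1.23 and 1.1, and 0.67 in the DMSO pair by last exons alone), zgc:111983 (−1.34 and 1.18), the adenylate kinase gene ak1 (−1.43 and 1.66) and the dipeptidase gene cndp1 (−3.98 and 1.39). As lists, fatty acid-binding and apolipoproteins had medians of −1.36 and 0.36, and liver genes −1.34 and 2.80. Several of these genes were also unequal between the uninjured libraries. Ctsl.1 was at 9.73 FPKM in uninjured DMSO and 150 FPKM in uninjured SIS3. In the same order, mta3 was at 0.597 FPKM and 22.4 FPKM, and hnrnpk at 97.2 FPKM and 32.6 FPKM. Ak1 was at 173 FPKM and 26.5 FPKM, and cndp1 at 52.3 FPKM and 1.49 FPKM.

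Genes listed in injured DMSO but not in uninjured DMSO were left out of every fold, and 6 of them reached 10 FPKM. They were hadhb, of fatty acid oxidation, at 80.1 FPKM, si:ch211-184m19.3 at 55 FPKM, rap2b, a small GTPase, at 24.6 FPKM, the endothelial lectin clec14a at 23.2 FPKM, the atrial myosin gene myh6 at 16.9 FPKM and denr, a translation factor, at 11.5 FPKM. Hadhb, clec14a and denr were unlisted in both SIS3 libraries too, and myh6 was listed in injured SIS3 (26.1 FPKM) but not in uninjured SIS3, so an unlisted gene is not shown to be unexpressed.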

How the results depend on the processing

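No paired analysis was possible because each group has 1 library and the groups share only 1 replicate number. The counts of 497 higher and 460 lower genes became 752 and 299 without scaling, 288 and 301 with a pseudocount of 5 FPKM, 749 and 846 with a mean of at least 1 FPKM, and 766 and 882 with no filter on the mean. With a mean of at least 10 FPKM the lower count was 299, of 4602 genes. With the median ratio of the 2 libraries, the trimmed mean of log ratios, no pseudocount, genes of 1 library kept at 0, first exons only and last exons only, the higher count ran from 437 to 587 and the lower from 408 to 551. List medians changed sign 16 times, mostly those within 0.21 of 0 without scaling; with last exons only the keratin median was 0.12 in place of −0.47. Of 307 named genes past 2-fold, 37 fell short of it without scaling and 56 with a pseudocount of 5 FPKM. By last exons alone zyx (−1.76), eif1b (−0.2), yars1 (−0.01), ampd3b (2.44), hnrnpk (0.67) and hnrnpa1a (2.5) reversed, as did IREB2 (0.01) and tek (0.4) by first exons alone; the cause was not tested. Unknown depth and 1 library a side limit every value.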

Other observations

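Further genes at the upper end belonged to no list. Their values are given without an explanation. A Polycomb chromobox gene, cbx7a, at chromosome 3, 24855597 to 24864069, was at 170.0 FPKM in injured DMSO against 15.9 FPKM in uninjured DMSO (3.34), and at 210.2 FPKM in injured SIS3 against 19.7 FPKM in uninjured SIS3 (3.35). The scavenger receptor gene scara3 lies near clu on the opposite strand of chromosome 20, with clu at 39357596 to 39371108 and scara3 at 39380970 to 39397851, and both were among the 30 highest. Scara3 was at 58.3 FPKM in injured DMSO against 3.56 FPKM in uninjured DMSO (3.7). Of the secreted HtrA proteases, htra1b was at 35.7 FPKM in injured DMSO against 3 FPKM in uninjured DMSO (3.2), and htra3a at 11.3 FPKM in injured DMSO against 0.585 FPKM in uninjured DMSO (2.96). Tnfrsf11a, the receptor RANK, was at 24.7 FPKM in injured DMSO against 2.35 FPKM in uninjured DMSO (2.94). The nuclear receptor gene nr0b2a was at 23.7 FPKM in injured DMSO against 2.15 FPKM in uninjured DMSO (2.97).

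Globin and ribosomal protein entries made up most of the 12 most abundant genes of each library, which held 13.4% of the summed FPKM of the genes described in injured DMSO and 16.6% in uninjured DMSO. Actc1a, a cardiac actin, was among those 12 in uninjured DMSO alone, with 1169 FPKM in injured DMSO against 3543 FPKM in uninjured DMSO (−1.6). The natriuretic peptide gene nppa was among them in injured DMSO alone, with 3442 FPKM in injured DMSO against 1069 FPKM in uninjured DMSO (1.69).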
